A study of Mus musculus with 6 samples.

Results

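The insulin-like growth factor (IGF) axis was described here as 10 listed genes: the ligands Igf1 and Igf2, the receptors Igf1r and Igf2r, and the binding proteins Igfbp2 to Igfbp7. They were found by gene symbol among the 17313 genes of the table; 9 had a row, and Igf2 was not analysed here. The data were stranded mRNA-seq libraries of mouse bone marrow derived macrophages, 3 from KO mice and 3 from WT mice, all on the C57BL/6 background. Every mouse carried floxed Hdac2 alleles (Hdac2 fl/fl), received LLC1 cells, a Lewis lung carcinoma line, by vein, and gave its marrow on day 20. The KO mice also carried LysM-Cre, a recombinase expressed from the lysozyme gene of myeloid cells and therefore not in every marrow cell, and the WT mice had no Cre. Age and sex are not stated, and neither is the number of mice behind each library. The p-values therefore cover only the spread between libraries, part of which may be technical.

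IGF1 and IGF2 are small secreted hormones that act through the IGF1 receptor, a tyrosine kinase related to the insulin receptor, to promote growth and survival. Binding proteins hold the IGFs outside the cell and either protect them or keep them from the receptor, and proteases release them by cutting the binding proteins. The IGF2 receptor does not signal in this way: it takes up IGF2 for breakdown and carries lysosomal enzymes by their mannose 6-phosphate tag. Macrophages are a known local source of IGF1, while several binding proteins are typical products of fibroblasts, bone-forming cells and vessels.

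Values are scaled counts, reads per gene multiplied by 1 factor per library and rounded, with library totals from 5704313 to 5818315 in KO and from 5776303 to 5837994 in WT. The targeted gene Hdac2 stood at 392, 387 and 375 scaled counts in the KO libraries, against 534, 482 and 518 in the WT libraries, so the groups did not overlap and a good part of the Hdac2 signal remained. Which exons are floxed is not stated, and the value counts all exons of the gene. WT 1 stood apart from WT 2 and WT 3. Xist, which is expressed in female cells, was at 4726, 4997 and 3298 in KO 1, KO 2 and KO 3, against 5243, 0 and 74 in WT 1, WT 2 and WT 3. The Y-linked gene Kdm5d was at 5, 0 and 0 in the KO libraries, against 34, 473 and 482 in the WT libraries, so WT 1 held transcripts of both kinds. Differences of the members, and those of the pathway genes and lists that the results turn on, are therefore also given without WT 1 and against WT 1 alone, while levels, shares and ratios are given by library. Without WT 1, genotype and this split coincide and cannot be told apart. The fit against WT 1 alone takes its spread from the KO libraries.

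All 12 macrophage markers were present, with summed levels of 15538 to 16059 scaled counts in KO and 16086 to 16831 in WT. Csf1r, Mrc1 and Adgre1 had the highest scaled counts of the list in every library. Mrc1, Mertk and Cx3cr1 had a higher KO mean, and the other 9 markers a lower one. The 14 markers of fibroblasts and marrow stroma summed to 14385 to 18623 scaled counts in KO, against 13693, 5744 and 5708 in the WT libraries. Of the 12 stroma markers tested, 12 had a higher KO mean, and Lepr, Lum and Twist2 were at 0 in at least 1 library. Lepr and Lum were too low to be tested. Twist2 stood at 10, 13 and 11 in KO, against 5, 1 and 0 in WT. A tested gene had to reach 10 in 3 libraries. Twist2 did so in KO alone, so its direction was fixed by this filter. The 5 smooth muscle and pericyte markers summed to 2400 to 2620 in KO and 1110 to 2227 in WT. In such bulk cultures, fewer cells of a type and less RNA per cell cannot be told apart.

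Igf1 (ENSMUSG00000020053, chromosome 10, 87858265 to 87937042, plus strand, mm10), the ligand that macrophages make, was lower in every KO library. It stood at 2338, 2379 and 2231 scaled counts in KO 1, KO 2 and KO 3, against 2779, 2669 and 3081 in WT 1, WT 2 and WT 3. The lowest WT library lay above the highest KO library, and WT 1 stood with the other WT libraries. The means were 2316 ± 76.4 in KO and 2843 ± 213 in WT (SD, n = 3 each), a ratio of 0.815. The log2 difference was -0.29 ± 0.068 (SE), and it did not pass the test over all genes (limma with Benjamini-Hochberg adjustment, adjusted p = 0.158). Under cyclic loess, a scaling that removes shifts depending on abundance, the difference was -0.17.

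Leaving out WT 1 gave a log2 difference of -0.31 for Igf1 and an adjusted p of 0.048, past the threshold, and its adjusted p lay between 0.048 and 0.79 across the alternatives. Against WT 1 alone the difference was -0.26 (unadjusted p = 0.016 in limma, adjusted p = 0.79). On a scale where the log2 mean of WT 2 and WT 3 is 0% and that of KO is 100%, WT 1 lay at 14.7% for Igf1. Macrophage markers as a list were also lower: 9 of 12 had a lower KO mean, 8 lay lower in KO without overlap (13.4% of all genes did), and their median log2 difference was -0.17, beside -0.0046 over all genes. Their part in the Igf1 difference was not tested. The antisense gene Igf1os overlaps the span of Igf1 but shares no exonic base with it, and it stood at 9 to 13 scaled counts in KO and 2 to 19 in WT. Whether counting used the strand is not stated.

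**Figure D1:**
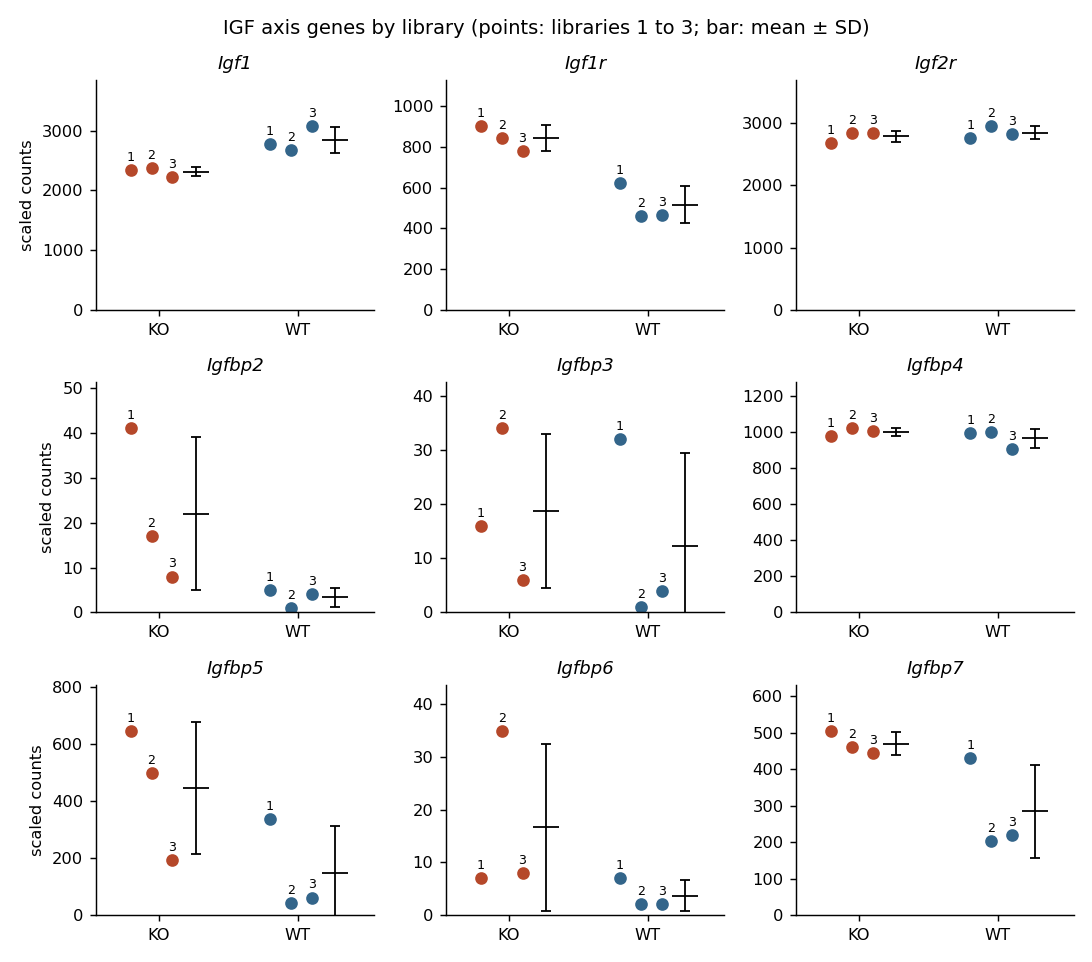
Scaled counts (vertical axes, starting at 0) of the 9 genes with a row, with a point for each library numbered 1 to 3, KO left of WT, and the mean ± SD beside the points (bars that would pass below 0 end at the axis). Igf1 lies lower and Igf1r, Igfbp2 and Igfbp7 higher in every KO library, while Igf2r and Igfbp4 overlap.

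Igf1r (ENSMUSG00000005533, chromosome 7, 67952827 to 68233668, plus strand), the signalling receptor of both ligands, went the other way. It stood at 904, 846 and 778 scaled counts in KO 1, KO 2 and KO 3, against 622, 463 and 466 in WT 1, WT 2 and WT 3. The groups did not overlap, and WT 1 was the highest of the WT libraries. The means were 843 ± 63.1 in KO and 517 ± 90.9 in WT (SD, n = 3 each), a ratio of 1.63, with a log2 difference of 0.72 ± 0.13 (SE, limma adjusted p = 0.158). It passed without WT 1, with a difference of 0.86 (adjusted p = 0.0015), and its adjusted p lay between 0.0015 and 0.79 across the alternatives. Against WT 1 alone the difference was 0.43 (unadjusted p = 0.0099 in limma, adjusted p = 0.79), and WT 1 lay at 49.2% of the way to KO.

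The insulin receptor gene Insr, which was chosen for this comparison after its values were seen, stood at 744, 768 and 726 scaled counts in KO and at 764, 913 and 830 in WT. Its groups overlapped, by WT 1, and its log2 difference was -0.16 ± 0.073 (SE, limma adjusted p = 0.239), -0.22 without WT 1 and -0.035 against WT 1 alone. Per exonic kilobase, the level of Igf1r was 0.995, 0.902 and 0.877 of the level of Insr in KO 1, KO 2 and KO 3, against 0.666, 0.415 and 0.46 in WT 1, WT 2 and WT 3. Per kilobase, Insr was thus above Igf1r in all 6 libraries, least so in KO and almost level with it in KO 1. Without division by length, Igf1r exceeded Insr in every KO library and in no WT library. The ratio of WT 1 lay between those of KO and of the other WT libraries.

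Igf2r (ENSMUSG00000023830, chromosome 17, 12682406 to 12769664, minus strand), the mannose 6-phosphate receptor that clears IGF2, was among the most abundant members and overlapped between the groups. It stood at 2675, 2831 and 2831 scaled counts in KO, against 2749, 2949 and 2819 in WT. The means were 2779 ± 90.1 in KO and 2839 ± 101 in WT (SD, n = 3 each). The log2 difference of -0.03 had a 95% interval from -0.16 to 0.096 (limma adjusted p = 0.766). It was -0.054 without WT 1, and it turned to 0.015 against WT 1 alone and to 0.10 under cyclic loess. Its antisense partner Airn, a noncoding RNA that shares no exonic base with it, stood at 52 to 54 in KO and 37 to 61 in WT.

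The binding proteins fell into an abundant pair, Igfbp4 and Igfbp7, a variable Igfbp5, and a group near the lower limit of the table. Igfbp4 (ENSMUSG00000017493, chromosome 11, 99041244 to 99054392, plus strand), which mostly restrains IGF action and is cut by the protease PAPP-A, was nearly level. It stood at 978, 1020 and 1004 scaled counts in KO, against 993, 998 and 905 in WT, with only WT 3 below the KO range. The log2 difference was 0.053, with a 95% interval from -0.078 to 0.18 (limma adjusted p = 0.587), and it was 0.074 without WT 1 and 0.011 against WT 1 alone.

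Igfbp7 (ENSMUSG00000036256, chromosome 5, 77349240 to 77408041, minus strand) encodes a secreted protein of vessels and stroma that binds IGFs weakly. It stood at 506, 461 and 444 scaled counts in KO 1, KO 2 and KO 3, against 431, 203 and 219 in WT 1, WT 2 and WT 3. The groups did not overlap, but WT 1 was close to KO 3 and far from the other WT libraries. The means were 470 ± 32.04 in KO and 284 ± 127 in WT (SD, n = 3 each), with a log2 difference of 0.81 ± 0.28 (SE, limma adjusted p = 0.168). Without WT 1 it was 1.15 and passed (adjusted p = 0.00089), and against WT 1 alone it was 0.12 (adjusted p = 0.854), which also bound the range over all alternatives. The exons of Igfbp7 share 85 bases with those of Polr2b on the opposite strand, and Polr2b stood at 834 to 909 in KO and 798 to 877 in WT.

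Igfbp5 (ENSMUSG00000026185, chromosome 1, 72857932 to 72874884, minus strand), a matrix-binding IGF carrier of bone and connective tissue, varied most among the abundant members. It stood at 646, 496 and 191 scaled counts in KO 1, KO 2 and KO 3, against 338, 41 and 61 in WT 1, WT 2 and WT 3. The groups overlapped, since WT 1 exceeded KO 3, and the KO libraries themselves spanned 3.38-fold. The means were 444 ± 232 in KO and 147 ± 166 in WT (SD, n = 3 each), with a log2 difference of 2.04 ± 0.86 (SE, limma adjusted p = 0.213). Without WT 1 the difference was 2.95 and passed (adjusted p = 0.016), while against WT 1 alone it was 0.22 (adjusted p = 0.951), and no alternative went outside these adjusted p-values. WT 1 lay at 92.5% of the way to KO for Igfbp5 and at 89.3% for Igfbp7. The summed stroma markers, given above, had the same 2 WT libraries at the bottom. Their part in the values of Igfbp5, Igfbp7, Igf1r and Igf1 was not tested.

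**Figure D2:**
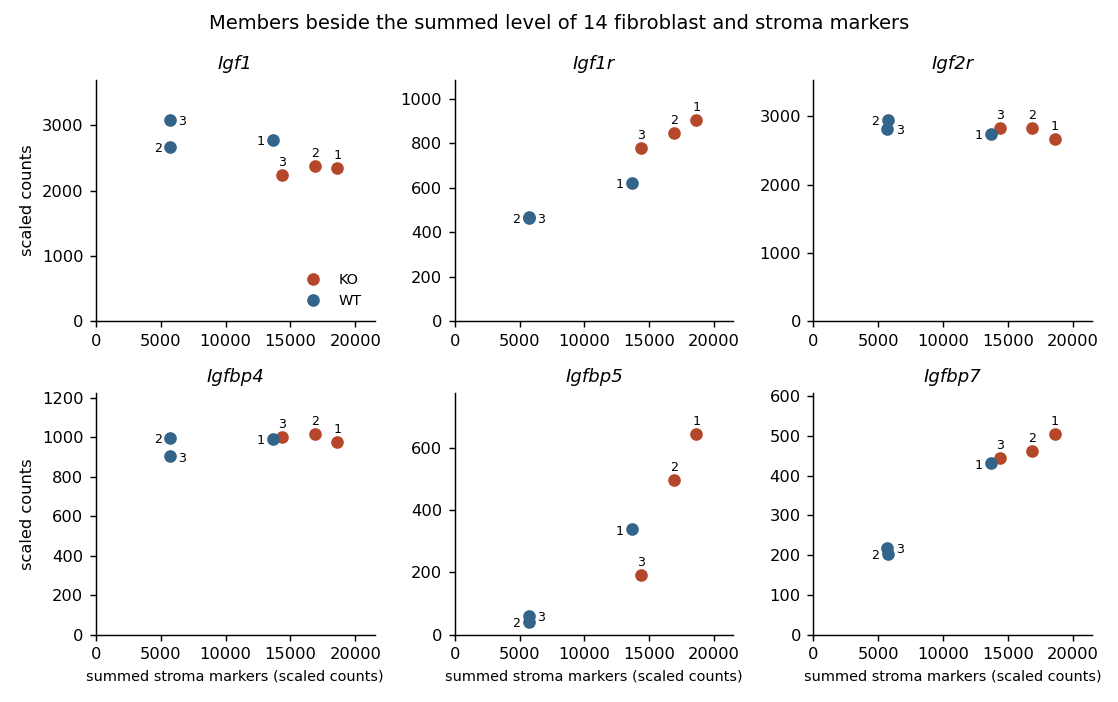
Scaled counts of 6 members (vertical axes) against the summed scaled counts of 14 fibroblast and stroma markers (horizontal axes), with 1 point for each KO and WT library, numbered 1 to 3. Igfbp7 and Igf1r are lowest in WT 2 and WT 3, where the marker sums are 5744 and 5708. The marker sum of WT 1 is 13693, and Igf1 in WT 1 lies with the other WT libraries.

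The remaining binding proteins were scarce. Igfbp3 (ENSMUSG00000020427, chromosome 11, 7206086 to 7213923, minus strand), the main IGF carrier of blood, stood at 16, 34 and 6 scaled counts in KO, against 32, 1 and 4 in WT, and passed the filter on low values through KO 1, KO 2 and WT 1. Its log2 difference was 1.22 ± 1.1 (SE, limma adjusted p = 0.548), 2.35 without WT 1 and -1.04 against WT 1 alone. Igfbp2 (ENSMUSG00000039323, chromosome 1, 72824503 to 72852474, plus strand), a second carrier found in serum and brain, stood at 41, 17 and 8 in KO, against 5, 1 and 4 in WT. Igfbp6 (ENSMUSG00000023046, chromosome 15, 102144362 to 102149511, plus strand), which prefers IGF2 as its ligand, stood at 7, 35 and 8 in KO, against 7, 2 and 2 in WT. Igfbp2 had its lowest KO library just above its highest WT library, and Igfbp6 owed its KO mean to KO 2. Igfbp2 and Igfbp6 did not reach 10 scaled counts in 3 libraries and were left out of the test. With no filter on low values their log2 differences were 2.28 and 1.72 (limma adjusted p = 0.162 and 0.226).

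Counted together, 7 of the 9 genes with a row were tested, and with limma on all 6 libraries none passed an adjusted p of 0.05, and 0% of the 13260 genes tested passed (the lowest adjusted p was 0.158). Taken without adjustment, at p under 0.05, 2 members were higher in KO (Igf1r and Igfbp7) and 1 lower (Igf1), where 14.7% of all genes were higher and 9.68% lower. The same 3 members were the tested members without overlap between the groups, where 16.1% of all genes lay above and 13.4% below. The median log2 difference of the 7 tested members was 0.72, beside -0.0046 over all genes. It was 0.86 without WT 1 and only 0.015 against WT 1 alone, beside -0.0069 and -0.0017 over all genes. Without WT 1, 3 members were higher (Igf1r, Igfbp5 and Igfbp7) and 1 lower (Igf1) past the adjusted threshold, where 12.8% of all genes were higher and 5.07% lower. Against WT 1 alone, 0 members and 0 genes passed, and at an unadjusted p under 0.05 there were 1 member higher (Igf1r, with 5.17% of all genes) and 1 lower (Igf1, with 1.06%).

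Levels were compared between genes as scaled counts per kilobase of exon. In KO, Igfbp7 led at 389 ± 26.5, followed by Igf2r at 299 ± 9.68, Igf1 at 234 ± 7.72 and Igfbp4 at 227 ± 4.80 (SD, n = 3). In WT, Igf2r and Igf1 led, at 305 ± 10.9 and 287 ± 21.5, followed by Igfbp7 at 235 ± 105 and Igfbp4 at 219 ± 11.8 (SD, n = 3). Igf1 and Igfbp4 differed by less than their spread in KO, as did each pair of neighbours in this order in WT. Igfbp7 was first in all 3 KO libraries and in WT 1, and at rank 4 in WT 2 and WT 3. This order depends on the length used, here the union of all exons. That union is 9904 bases for Igf1 and 9308 for Igf2r, while their longest transcripts are 7052 and 8887. Divided by the longest transcript, the mean of Igf1 would lie above that of Igf2r in both groups. Igf1 would also lie clear of Igfbp4 in KO and above Igfbp7 in WT 1.

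Below these, Igfbp5 was at 74.0 ± 38.6 per kilobase in KO and 24.4 ± 27.6 in WT, and Igf1r at 50.2 ± 3.76 in KO and 30.8 ± 5.42 in WT (SD, n = 3 each). Igfbp2, Igfbp3 and Igfbp6 did not exceed 31.5 in any library. The order among these 3 changed from library to library. The highest mean level of any of the 17297 genes with an exonic length was 850 per kilobase, and Igf1, at 260.5 over the 6 libraries, was exceeded by 749 genes. The highest level corresponds to under 1 scaled count per exonic base, and the submitters' notes name Picard, a read-handling tool, without its role. Whether reads with the same start were counted once is not stated. Had they been, the levels, ratios and ranks of the abundant genes would be compressed, which was not tested.

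The makeup of the binding protein RNA also differed between libraries. Their summed level per kilobase was 781, 746 and 640 in KO 1, KO 2 and KO 3, against 657, 403 and 401 in WT 1, WT 2 and WT 3, so KO 3 lay below WT 1. Igfbp4 held 28.4%, 30.9% and 35.5% of it in KO, against 34.2%, 56.0% and 51.0% in WT. Igfbp7 held 53.6%, 51.1% and 57.4% in KO, against 54.3%, 41.6% and 45.1% in WT. Igfbp5 held 13.8%, 11.1% and 4.97% in KO, against 8.57%, 1.69% and 2.53% in WT. Igfbp4 was thus the leading binding protein transcript only in WT 2 and WT 3, and Igfbp7 in the other 4 libraries.

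**Figure D3:**
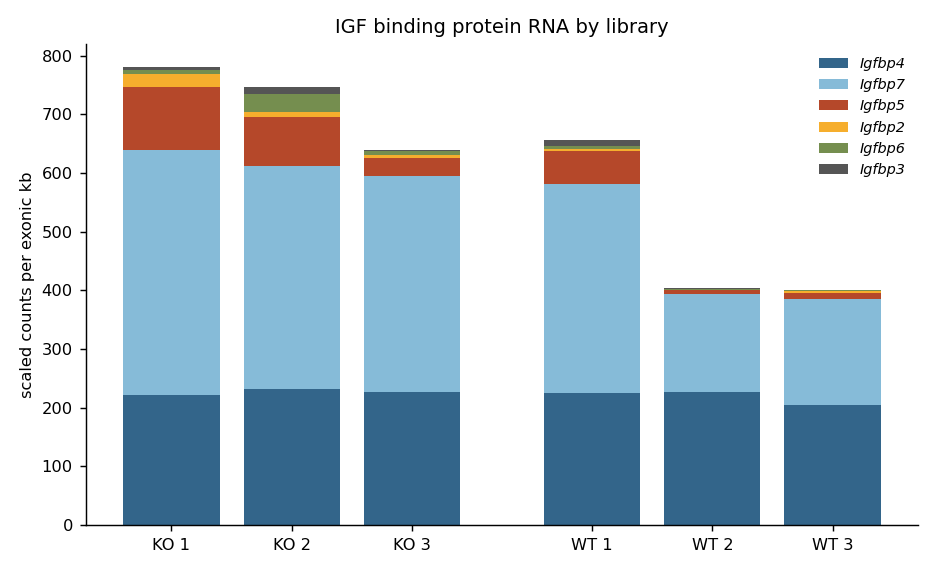
Scaled counts per exonic kilobase (vertical axis, starting at 0) of 6 IGF binding protein genes, stacked for each KO and WT library. The Igfbp4 part is nearly the same height throughout, while the Igfbp7 and Igfbp5 parts are smallest in WT 2 and WT 3.

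The promoters of 5 members are shown because these members differ in how they behaved: Igf1 was lower in KO, Igf1r, Igfbp5 and Igfbp7 had higher means, and Igfbp4 was level. The study's title names the transcription factor SP1, whose best known site is the GC box, so the letters GGGCGG were searched on both strands, together with TATAAA, the core of the TATA box. Capitals mark these matches, and no match of the first overlaps a match of the second. Sequences are from RefSeq (GRCm38.p6, which is mm10), 250 bases before to 50 after the start that RefSeq gives, written 5′ to 3′ on the strand of the gene.
Igf1 promoter, chr10:87860861-87861160, plus strand: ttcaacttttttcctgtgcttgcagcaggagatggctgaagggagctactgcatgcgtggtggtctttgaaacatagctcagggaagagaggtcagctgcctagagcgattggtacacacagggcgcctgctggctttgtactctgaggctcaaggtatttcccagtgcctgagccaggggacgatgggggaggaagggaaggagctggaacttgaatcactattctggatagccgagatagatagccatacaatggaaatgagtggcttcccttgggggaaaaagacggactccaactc
Igf1r promoter, chr7:67952007-67952306, plus strand: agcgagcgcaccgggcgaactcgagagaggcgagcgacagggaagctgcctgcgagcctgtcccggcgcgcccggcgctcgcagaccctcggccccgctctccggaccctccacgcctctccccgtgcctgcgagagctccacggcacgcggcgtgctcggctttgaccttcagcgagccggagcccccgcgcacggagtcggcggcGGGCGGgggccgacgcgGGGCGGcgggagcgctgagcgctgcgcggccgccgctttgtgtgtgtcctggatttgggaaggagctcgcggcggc
Igfbp4 promoter, chr11:99040994-99041293, plus strand: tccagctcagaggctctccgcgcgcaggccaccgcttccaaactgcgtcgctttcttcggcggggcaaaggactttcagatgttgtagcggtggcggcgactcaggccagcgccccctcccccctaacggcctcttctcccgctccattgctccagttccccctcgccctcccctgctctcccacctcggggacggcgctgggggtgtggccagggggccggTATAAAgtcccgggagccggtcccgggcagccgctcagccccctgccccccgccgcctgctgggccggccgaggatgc
Igfbp5 promoter, chr1:72874816-72875115, minus strand: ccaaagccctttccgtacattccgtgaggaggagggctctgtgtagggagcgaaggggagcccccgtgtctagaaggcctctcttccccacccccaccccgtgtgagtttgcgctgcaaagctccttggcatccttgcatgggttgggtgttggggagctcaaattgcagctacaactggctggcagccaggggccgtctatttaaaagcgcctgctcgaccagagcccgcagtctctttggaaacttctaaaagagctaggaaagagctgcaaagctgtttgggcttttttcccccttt
Igfbp7 promoter, chr5:77407996-77408295, minus strand: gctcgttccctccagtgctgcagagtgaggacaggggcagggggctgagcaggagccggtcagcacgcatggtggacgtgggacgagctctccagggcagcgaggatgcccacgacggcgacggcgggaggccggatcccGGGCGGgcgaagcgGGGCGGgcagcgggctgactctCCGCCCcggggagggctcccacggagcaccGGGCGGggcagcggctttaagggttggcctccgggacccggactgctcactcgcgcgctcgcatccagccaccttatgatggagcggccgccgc

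The Igf1 window held neither motif and had 52.3% G and C, beside a median of 52.7% over all 32851 promoter windows of the genome. It lies inside the annotated span of Igf1 given above, downstream of its first base, while the Igf1r window ends before the first base of the span given for Igf1r. The Igf1r window had 2 GC boxes and 76.0% G and C, and the Igfbp7 window 4 GC boxes and 73.3%. The Igfbp5 window had neither motif, at 56.3% G and C, and the Igfbp4 window had no GC box but a TATA box at position -28, counting the start base as 0, at 71.3%. GC boxes occurred in 35.7% of all windows and TATA boxes in 13.6%. Igf2r, which was level between the groups, had 3 GC boxes in its window. These matches describe the letters only and say nothing of binding.

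The genes whose profile over the 6 libraries was nearest to that of a member are given next, by the root mean square difference of the centred log2 values over 6 libraries. The search covered the tested genes, without those that carry only a Gm, Rik or accession-like name and without 5 sex-linked genes. For Igf1 they were Yae1d1 (0.024), the cadherin-related gene Fat3 (0.027) and Tbc1d23 (0.035), with Igf1 itself spanning 0.47. For Igf1r they were Fcrl1 (0.049), the RNA-binding protein gene Msi2 (0.051) and P3h3, a modifier of collagen (0.053), with Igf1r spanning 0.96. For Igfbp7 they were Loxl3, a collagen crosslinking enzyme (0.027), Csf1, the macrophage growth factor M-CSF (0.035), and Ccn2, a matrix-associated growth factor (0.036). Csf1 stood at 1653, 1574 and 1456 scaled counts in KO, against 1470, 707 and 721 in WT.

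For Igfbp5 the nearest were Mid2 (0.12), Dnm3os (0.19) and Fam13c (0.21), a looser fit over a span of 3.95. Mid2 stood at 167, 134 and 62 scaled counts in KO, against 95, 12 and 18 in WT, and Dnm3os is an antisense transcript whose reads may not be told from those of Dnm3. For Igfbp3 they were Fap, the fibroblast activation protein (0.51), Kbtbd11 (0.51) and Scn2a (0.55), over a span of 4.13 at low values. For Igfbp4 they were Tcp11l1 (0.012), Copg1 (0.017) and Pgs1 (0.017), and for Igf2r Ppt1 (0.013), Mapre1 (0.013) and Nsmce3 (0.013), all nearly flat.

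Outside the 10 members, the pathway was read from 6 lists with 62 genes, of which 57 had a row and 54 were tested. With all 6 libraries 0 passed the adjusted threshold. At an unadjusted p under 0.05, 14 were higher and 4 lower in KO (14.7% and 9.68% over all genes), and without WT 1 the adjusted threshold was passed by 14 higher and 5 lower genes (12.8% and 5.07% over all genes). The median log2 difference was -0.014, and it was -0.019 without WT 1 and 0.032 against WT 1 alone. Over the named pathway genes and all alternatives, the limma adjusted p ranged from 0.00037 to 0.998, and none but the fit without WT 1 gave one under 0.05.

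The genes that act on IGFs outside the cell had the highest median, 2.43 on the log2 scale over 5 tested genes, all 5 with a higher KO mean and all 5 past the adjusted threshold without WT 1 (12.8% of all genes were higher). The median was 3.19 without WT 1 and 0.70 against WT 1 alone. Markers of stroma moved the same way: 12 of 12 tested had a higher KO mean, with a median of 1.42 and 10 past the threshold without WT 1. So did 5 of 5 smooth muscle markers, with a median of 0.83. The medians of stroma and smooth muscle markers were 1.90 and 1.10 without WT 1, and 0.40 and 0.30 against WT 1 alone. The 12 and the 10 include Twist2, which the filter on low values admitted through the KO libraries alone. The sums of both marker lists were lowest in WT 2 and WT 3. Their part in the list of genes outside the cell and in the lists that follow was not tested. Pappa, which encodes the protease PAPP-A that frees IGFs by cutting IGFBP4, stood at 1859, 1412 and 741 scaled counts in KO, against 866, 87 and 163 in WT. Pappa is named besides the rule, after its values were seen, and KO 3 lay below WT 1. Its log2 difference was 2.43 ± 0.85 (SE, limma adjusted p = 0.168) with all libraries and 0.53 against WT 1 alone. Its substrate Igfbp4, given above, was level.

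Stc2, a secreted inhibitor of PAPP-A, stood at 33, 30 and 19 scaled counts in KO, against 16, 0 and 1 in WT. The serine protease gene Htra1 stood at 343, 313 and 310 in KO, against 222, 61 and 66 in WT, and its relative Htra3 at 127, 68 and 58 in KO, against 37, 19 and 19 in WT. Adam12, a metalloprotease that can cut IGF binding proteins, stood at 241, 222 and 260 in KO, against 128, 19 and 34 in WT. In these 4 genes the KO libraries were all above the WT libraries (16.1% of all genes were), and WT 1 was the highest WT library. The 4 were named for their small p, which favours genes without overlap. The log2 differences were 3.09, 1.73, 1.70 and 2.43 for Stc2, Htra1, Htra3 and Adam12, and 0.70, 0.53, 1.08 and 0.90 against WT 1 alone.

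**Figure D4:**
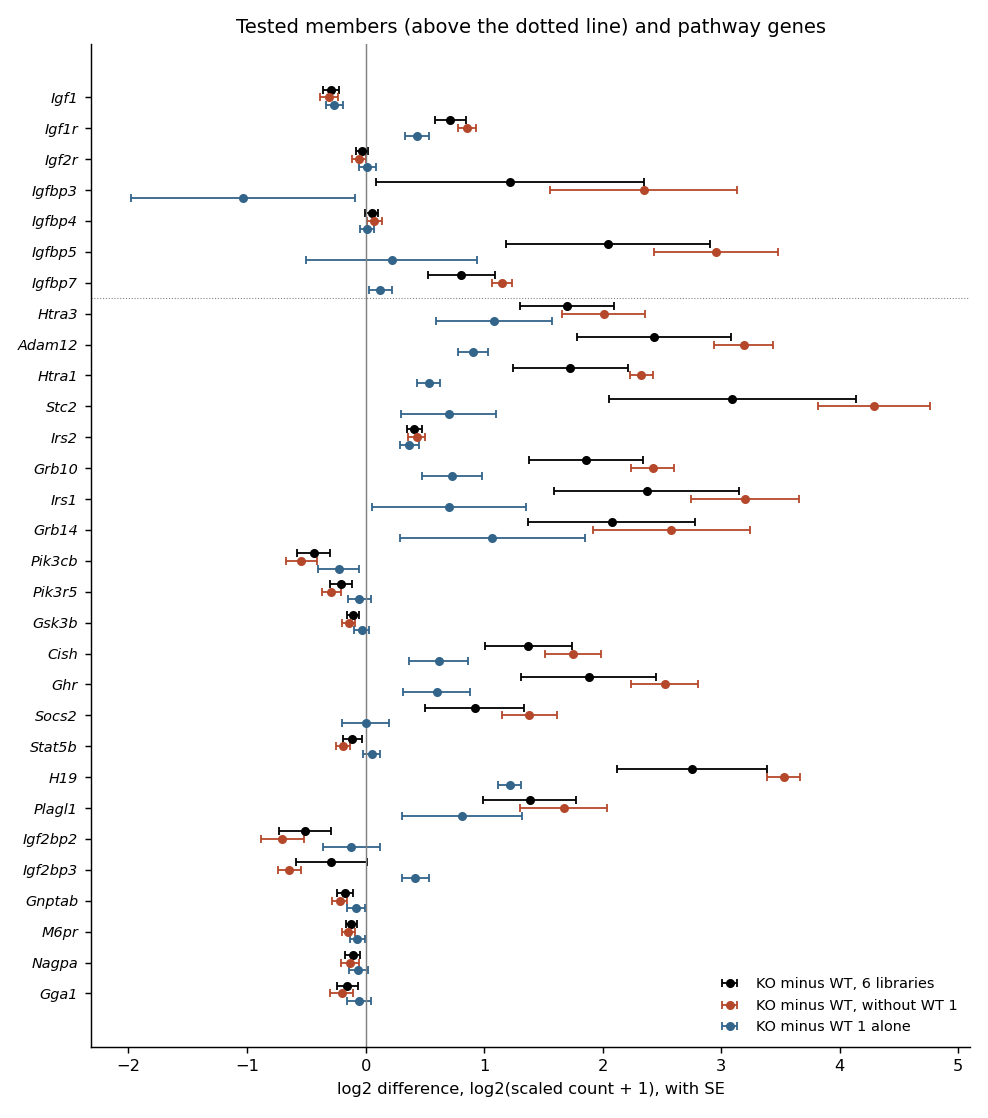
Log2 differences on the log2(scaled count + 1) scale with SE (horizontal axis) for the 7 tested members, above the dotted line, and the named pathway genes, 1 of them left out, as KO minus WT with 6 libraries, without WT 1 and against WT 1 alone. For Igf1 and Irs2 the 3 estimates lie close together, while for Igfbp5, Stc2 and Irs1 the estimate against WT 1 alone lies far below the others.

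Among the 8 tested receptor and adaptor genes, 6 had a higher KO mean, 5 were higher at an unadjusted p under 0.05 (14.7% of all genes) and 4 were higher past the threshold without WT 1 (12.8% of all genes). The median log2 difference was 0.34, and it was 0.37 without WT 1 and 0.34 against WT 1 alone. Irs2, which encodes an adaptor that passes on the signal of the insulin and IGF1 receptors, stood at 296, 286 and 295 scaled counts in KO, against 226, 210 and 223 in WT. All 3 WT libraries lay together for Irs2, and its log2 difference was 0.41 ± 0.062 (SE, limma adjusted p = 0.158), 0.43 without WT 1 and 0.37 against WT 1 alone. Irs1, its relative with the same role, stood at 431, 284 and 138 in KO, against 157, 28 and 26 in WT, so that WT 1 exceeded KO 3.

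Grb10, an imprinted adaptor gene whose protein binds and restrains the insulin and IGF1 receptors, stood at 1121, 932 and 723 scaled counts in KO, against 548, 176 and 163 in WT. Its relative Grb14 stood at 74, 35 and 19 in KO, against 17, 9 and 3 in WT. The groups did not overlap for either gene. The log2 differences were 1.86 for Grb10, 2.08 for Grb14 and 2.37 for Irs1, and against WT 1 alone 0.73, 1.07 and 0.71. Irs1, Grb10 and Grb14 were lowest in WT 2 and WT 3, as the summed stroma markers were.

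The growth hormone receptor gene Ghr, whose signal drives Igf1 in liver, stood at 457, 385 and 281 scaled counts in KO, against 242, 49 and 81 in WT. Its log2 difference was 1.88 (limma adjusted p = 0.158) and 0.60 against WT 1 alone. Cish and Socs2, inhibitors that STAT5 induces, stood at 36, 40 and 32 and at 106, 88 and 114 in KO, against 23, 11 and 9 and 102, 31 and 48 in WT. Stat5b, the transcription factor of this route, stood at 710, 695 and 759 in KO, against 696, 828 and 821 in WT, and overlapped. Of the 6 genes, 3 had a higher and 3 a lower KO mean, and 3 were higher past the threshold without WT 1 (Ghr, Cish and Socs2), where 12.8% of all genes were. These 3 genes were also lowest in WT 2 and WT 3, as the summed stroma markers were. Against WT 1 alone Cish was at 0.62 and Socs2 at 0.0011.

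H19, the noncoding RNA gene that shares its control region with Igf2, stood at 264, 257 and 249 scaled counts in KO, against 110, 24 and 19 in WT. Every KO library lay above WT 1, and the log2 difference was 2.76 ± 0.63 (SE, limma adjusted p = 0.158), 3.53 without WT 1 and 1.21 against WT 1 alone. Plagl1, an imprinted transcription factor gene, stood at 95, 73 and 41 in KO, against 37, 19 and 21 in WT. The RNA-binding protein genes Igf2bp2 and Igf2bp3 had lower KO means. Igf2bp2 stood at 591, 573 and 833 in KO, against 713, 1158 and 983 in WT, and Igf2bp3 at 176, 162 and 169 in KO, against 126, 283 and 247 in WT. Igf2bp3 had its lowest value in WT 1, and its log2 difference was -0.29 with all libraries, -0.64 without WT 1 and 0.42 against WT 1 alone. Igf2bp2 was at -0.51, -0.70 and -0.12 in the same 3 fits. Without WT 1 both passed the threshold as lower in KO (adjusted p = 0.048 for Igf2bp2 and 0.0093 for Igf2bp3), where 5.07% of all genes did.

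Downstream, the PI3K, AKT, FOXO and mTOR genes were nearly level, with a median log2 difference of -0.044 over 24 tested genes and a range from -0.44 to 0.11. Of these, 2 had an unadjusted p under 0.05, both lower in KO (9.68% of all genes were). Pik3cb, a catalytic subunit of PI3K, stood at 837, 841 and 1079 scaled counts in KO, against 1069, 1399 and 1261 in WT. KO 3 lay above WT 1, so the groups overlapped, and the log2 difference was -0.44 ± 0.14 (SE, limma adjusted p = 0.158). It was -0.54 without WT 1 and -0.23 against WT 1 alone. Pik3r5 and Gsk3b had differences of -0.21 and -0.11. Without WT 1, 3 genes of the list were lower past the threshold (5.07% of all genes), among them Pik3cb and Tsc1, an inhibitor of mTOR, which is named after its values were seen. Tsc1 stood at 775, 785 and 761 scaled counts in KO, against 758, 1000 and 884 in WT, so the groups overlapped through WT 1. Its log2 difference was -0.18 (limma adjusted p = 0.325), -0.28 without WT 1 and 0.029 against WT 1 alone.

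The mannose 6-phosphate sorting genes, which tag and move the enzymes that Igf2r carries, had a median of -0.11 over 7 tested genes, 6 of them with a lower KO mean. Gnptab, the enzyme that begins the tag, stood at 1375, 1367 and 1494 scaled counts in KO, against 1493, 1697 and 1590 in WT. M6pr, the smaller mannose 6-phosphate receptor, stood at 1004, 1010 and 1059 in KO, against 1075, 1155 and 1110 in WT, without overlap (13.4% of all genes lay below in this way). Their log2 differences were -0.17 and -0.12 (limma adjusted p = 0.184 and 0.198), and those of Nagpa and Gga1 were -0.11 and -0.15. None of the 7 passed without WT 1, where the median was -0.13, and against WT 1 alone it was -0.059.

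**Figure D5:**
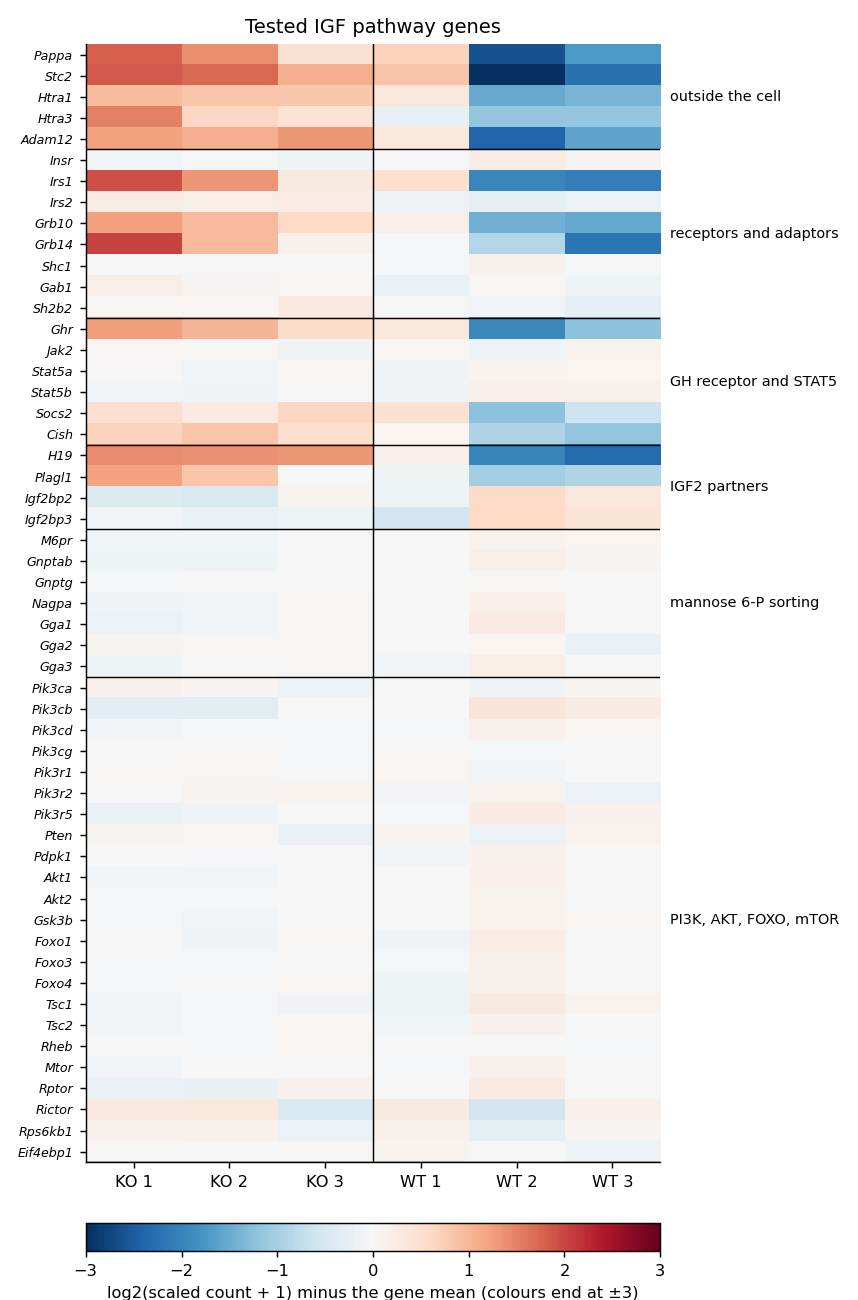
Log2(scaled count + 1) minus the gene's mean over the 6 libraries (colour, red above and blue below) for the tested pathway genes in 6 lists, 1 of them left out, with KO libraries left of WT libraries. The genes outside the cell, Irs1, Grb10, Ghr and H19 are blue in WT 2 and WT 3 and pale or red in WT 1, and the PI3K to mTOR block is pale throughout.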

How the data were processed

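Stranded mRNA libraries (3 KO, 3 WT) were read from one end, per the labels' protocols. Tools in the submitters' processing notes include featureCounts 2.0.3, Picard 2.27.4, STAR 2.7.10a and DESeq2 1.36.0, with no role given, and the build is mm10. The deposited values were taken as a score, counts scaled by the authors and rounded: totals were nearly equal, and of the values 1 to 60, 5 never occurred in WT 2 and 1 in WT 1. Raw reads are unknown, so no count model or counting interval is given, and low values limit the precision.

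The 13260 genes that reached a value of 10 in 3 or more libraries entered limma (version 3.58.1, R 4.3.3), with a trend of variance on intensity, as log2(value + 1). This scale understates changes of low genes. Tests were two-sided, with Benjamini-Hochberg adjustment at 0.05. Differences are KO minus WT. The steps were run on simulated data with independent noise for each gene. No simulated library stood apart as WT 1 does, so the simulation cannot speak to the calls that depend on WT 1. Exon unions came from GENCODE M21, where 17297 identifiers matched. Sequences were read with Python 3.11.15 and pandas 2.3.3; all 10 symbols matched a RefSeq promoter.

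Members and lists were chosen with earlier results of these data known. Named were the members, Hdac2, up to 4 genes per pathway list by smallest p, and the 3 nearest profiles per tested member; 1 gene so named is not reported here. Alternatives were other scalings, filters, pseudocounts, a threshold of 0.10, no trend, each library left out, a replicate block and WT 1 alone.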

Additional observations from a re-analysis of the deposited data

How the results depend on the processing

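With all 6 libraries no gene, member or pathway gene passed the adjusted threshold, and this held under every alternative run except leaving out WT 1. Over the fits that left out 1 library each, the calls higher in KO ranged from 0 to 1691 genes, 0 to 3 members and 0 to 14 pathway genes, and the calls lower in KO from 0 to 672, 0 to 1 and 0 to 5. In each case the high end was the fit without WT 1. The Igf1 difference ranged from -0.34 without WT 2 to -0.23 without WT 3, and the fit without WT 1 gave -0.31, past the threshold. The cause of these shifts was not tested.

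Among the members and named pathway genes, directions turned in 6 cases: Igf2r was 0.10 under cyclic loess, and with WT 1 as the only WT library Igf2r was 0.015, Igfbp3 -1.04, Stat5b 0.050, Tsc1 0.029 and Igf2bp3 0.42. Whether the replicate numbers pair the libraries is not stated. Deviations from the group means correlated at 0.53 for number 1, -0.36 for number 2 and 0.024 for number 3, and KO 2 and KO 3 correlated best with another number. Deviations within a group sum to 0, so these correlations depend on each other and cannot settle the pairing. The replicate block left 0 genes, members and pathway genes called, with an adjusted p of 0.134 for Igf1r and 0.168 for Igf1. The share of Igfbp4 in the binding protein level stayed within the replicate spread with the longest transcript as length. Rounded low values limit Igfbp2, Igfbp3 and Igfbp6.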
